A study of Mus musculus with 13 samples.

Results

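The mitochondrial ribosomal protein genes were examined in mouse frontal cortex. They were taken as every gene whose symbol begins with Mrpl or Mrps followed by a number, without the suffix -ps that marks a pseudogene, and whose expected counts summed to at least 10 over 13 libraries. The rule gave 78 genes of 55536 gene identifiers in the files, 49 with an Mrpl symbol and 29 with an Mrps symbol. Summed counts ran from 4055 for Mrpl1 to 33785 for Mrps25, so no member lay near the minimum, and all 78 passed the filter on low counts that left 17483 genes to test. Left out by their suffix were 5 symbols, Mrpl23-ps1, Mrpl48-ps, Mrps36-ps1, Mrps36-ps2 and Mrps36-ps3.

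Each member was read in 4 groups that differ in genotype and age. Wild-type mice of strain B6SJLF1/J gave 4 libraries at 6 months and 3 libraries at 11 months. 5XFAD mice, whose strain is named only as 5XFAD, gave 3 libraries at 6 months and 3 libraries at 11 months. 5XFAD is a transgenic line in which mutated human transgenes, among them APP, are driven by the Thy1 promoter, which is active in neurons, and it serves as a model of amyloid plaques. The design sets the genotypes against each other at each age. Total RNA was extracted, and the sample titles call the assay mRNA sequencing. Replicate numbers used here follow the order of deposit and pair no libraries. The labels do not say whether libraries came from separate animals. The p-values therefore speak only of how much these libraries varied, and some of that spread may be technical.

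Mitochondria carry their own ribosomes, which translate the small set of membrane proteins encoded by mitochondrial DNA, all of them parts of the respiratory chain and ATP synthase. The rRNAs of these ribosomes come from mitochondrial DNA, while every protein subunit is encoded in the nucleus, made in the cytosol and imported. Many subunits descend from the bacterial ribosome and others were added in the mitochondrial lineage. Neurons depend heavily on oxidative phosphorylation.

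By role, 30 members encode large-subunit proteins with a bacterial counterpart and 21 encode large-subunit proteins specific to mitochondria. The 21 include Mrps30 and Mrps18a, which carry small-subunit symbols but belong to the large subunit. The small subunit is represented by 16 members with a bacterial counterpart and 10 specific to mitochondria. The remaining 1, Mrps36, was named as a ribosomal protein but encodes a component of the 2-oxoglutarate dehydrogenase complex.

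Counts assigned to genes totalled 23618289 to 26615772 per library, and the share of counts from mitochondrial DNA ran from 7.89% to 11.4%. Sex is not in the labels and was read from Xist and Y-linked genes. By that reading the libraries were 2 female and 2 male in wild type at 6 months, 3 male in 5XFAD at 6 months, 1 female and 2 male in wild type at 11 months, and 2 female and 1 male in 5XFAD at 11 months. Replicate 1 of wild type at 6 months stood apart with a summed level of 2952 CPM (counts scaled to a common library total) for 3 measured choroid plexus markers, against a group median of 33.7 CPM. Markers of neurons, 6 of 6 measured, summed to 4882 to 7416 CPM over the 13 libraries, and markers of striatum, a neighbouring region, summed to 267 to 2862 CPM. No pair of libraries was so close as to be a repeat of the same one.

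The promoters of the members are described before the levels, and whether their letters bear on any change in level was not tested. The RefSeq promoter table (build GRCm38.p6, 250 bases before to 50 after each start) held 75 promoters of 69 members. The letters CCGGAAG, bound by the ETS-family factor GABP, occurred on either strand in 26 of these 75 promoters (34.7%), against 8.86% of 32851 promoters in the table. The letters AAGATGGC, bound by YY1, occurred in 12 (16.0%), against 2.75% of all. The letters GCGCATGCGC, bound by NRF1 (nuclear respiratory factor 1, a regulator of nuclear genes for mitochondria), occurred in 3 (4.0%), against 0.971% of all, in Mrpl9, Mrpl32 and Mrpl39. The GC box GGGCGG was found in 52.0% against 35.7%, the CCAAT letters in 40.0% against 37.4%, and the TATAAA letters in 6.67% against 13.6%. Member promoters were richer in G and C, with a median of 58.7% against 52.7% for all promoters, and these matches are a description of letters, not of bound sites.

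The stretches below lie upstream of any annotated exon and read 5′ to 3′ in the direction of the gene, with capitals marking matches to the GABP, YY1 or NRF1 letters only. Mrpl17 (chr7:105811100-105811337, minus strand) was lower at 11 months in 5XFAD and has a GABP match. Mrpl20 (chr4:155802628-155802877, plus strand) and Mrps33 (chr6:39810989-39811186, minus strand) were lower at 11 months in both genotypes and have none of the 3 in the stretch printed, although the full window of Mrps33 holds the GABP letters nearer its start and counts among the 26. Mrpl9 (chr3:94443086-94443317, plus strand) has an NRF1 match whose first base lies 28 bases before its start, at the end of the stretch printed, and passed no test.

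Mrpl17: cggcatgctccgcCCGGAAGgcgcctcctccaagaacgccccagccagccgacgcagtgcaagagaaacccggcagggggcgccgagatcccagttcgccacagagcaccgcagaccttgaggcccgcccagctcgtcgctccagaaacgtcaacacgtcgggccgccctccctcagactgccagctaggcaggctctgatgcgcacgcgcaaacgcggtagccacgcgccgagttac
Mrpl20: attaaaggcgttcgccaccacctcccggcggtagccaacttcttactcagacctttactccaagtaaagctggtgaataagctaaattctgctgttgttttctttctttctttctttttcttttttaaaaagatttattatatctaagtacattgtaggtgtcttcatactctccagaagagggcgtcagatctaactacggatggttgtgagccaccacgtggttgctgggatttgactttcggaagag
Mrps33: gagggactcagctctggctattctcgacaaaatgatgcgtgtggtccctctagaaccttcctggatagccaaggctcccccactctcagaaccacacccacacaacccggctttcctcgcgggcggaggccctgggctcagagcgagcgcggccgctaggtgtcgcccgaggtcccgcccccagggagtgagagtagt
Mrpl9: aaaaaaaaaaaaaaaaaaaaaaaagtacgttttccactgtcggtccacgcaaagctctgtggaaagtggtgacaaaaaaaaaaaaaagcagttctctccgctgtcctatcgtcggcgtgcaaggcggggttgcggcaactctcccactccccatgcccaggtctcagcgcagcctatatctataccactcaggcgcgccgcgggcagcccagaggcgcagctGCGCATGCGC

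Levels between genes were compared as TPM, which scales for transcript length and library total. The 78 members had a median level of 54.2 TPM, and the highest mean level was 45.6 times the lowest. Mrps21, a small-subunit protein of bacterial descent, had the highest mean level at 243 TPM, with 171 TPM in its lowest library and 307 TPM in its highest. Next came Mrpl52, a large-subunit protein specific to mitochondria, at 194 TPM, followed by Mrpl20 at 142 TPM, Mrpl30 at 139 TPM and Mrpl27 at 126 TPM, all 3 of bacterial descent. The ranges of Mrpl20 (98.6 to 175 TPM) and Mrpl30 (115 to 154 TPM) overlapped, and their order changed between libraries. Mrpl20 was higher in replicate 1 of wild type at 6 months (164 against 147 TPM). It was lower in replicate 2 of wild type at 11 months (98.6 against 118 TPM). At the other end Mrpl1, whose bacterial counterpart forms the stalk by which the empty tRNA leaves, had a mean of 5.33 TPM (4.16 to 7.05 TPM). Mrps30 came next with 6.69 to 11.3 TPM. Its range narrowly overlaps that of Mrpl1, but within every library Mrps30 was the higher. Mrpl19, Mrpl35 and Mrpl39 followed at 12.7, 14.2 and 14.3 TPM and overlapped one another.

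**Figure D1:**
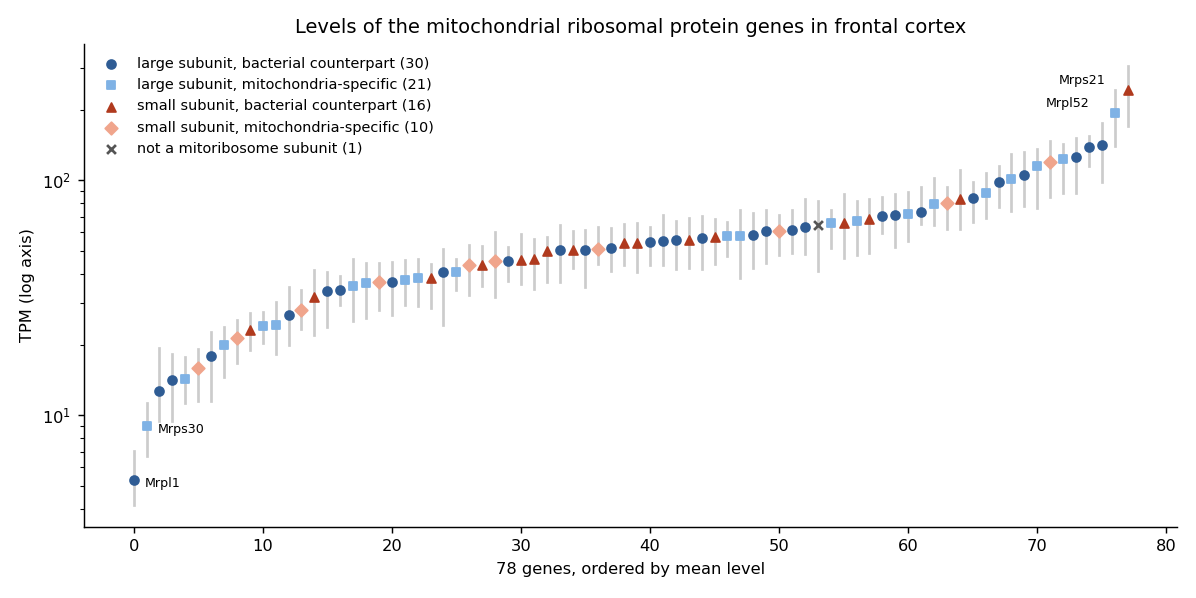
Mean level of each of the 78 mitochondrial ribosomal protein genes over 13 libraries, in TPM on a log axis, with genes ordered by mean level. Symbols give the role, and grey bars run from the lowest to the highest library. Levels run from 5.33 TPM for Mrpl1 to 243 TPM for Mrps21, and the roles are intermixed along it.

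Within a gene, levels are given as CPM, scaled with TMM factors (trimmed mean of M values, which adjusts library totals). The members varied little from library to library: the coefficient of variation over the 13 libraries had a median of 12.6%, against 17.1% for all genes tested. It was smallest for Mrpl37 (5.39%), Mrps17 (5.78%) and Mrps5 (5.92%) and largest for Mrpl22 (19.0%), Mrps18c (18.7%) and Mrpl20 (18.5%). Member transcripts were short, with a median length of 1050 bases against 2454 bases for all genes tested, and 42 members overlap another annotated gene, 36 of them one on the opposite strand. The strand setting is not given in the sources used here, so reads of such pairs cannot be told apart.

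As a description of the family in each library, the median over members of log2 CPM minus the gene's mean over 13 libraries was taken. In wild type at 6 months it was 0.15, 0.08, 0.09 and 0.15, and in 5XFAD at 6 months it was 0.23, 0.07 and 0.14. In wild type at 11 months it was -0.01, -0.31 and -0.16, and in 5XFAD at 11 months it was -0.10, -0.17 and -0.15. Every 6-month library was above every 11-month library, while the genotypes overlapped at both ages. The 6-month libraries had 61 to 76 of the 78 members above the gene's own mean, and the 11-month libraries had 1 to 33. Replicates 1 and 2 of wild type at 11 months were the highest and the lowest of the 6 libraries of that age. Summed over the members, levels were 2826 ± 80.6 CPM (SD, n = 4) in wild type and 2900 ± 132 CPM (SD, n = 3) in 5XFAD at 6 months, and 2384 ± 200 CPM (SD, n = 3) and 2395 ± 46.6 CPM (SD, n = 3) at 11 months.

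**Figure D2:**
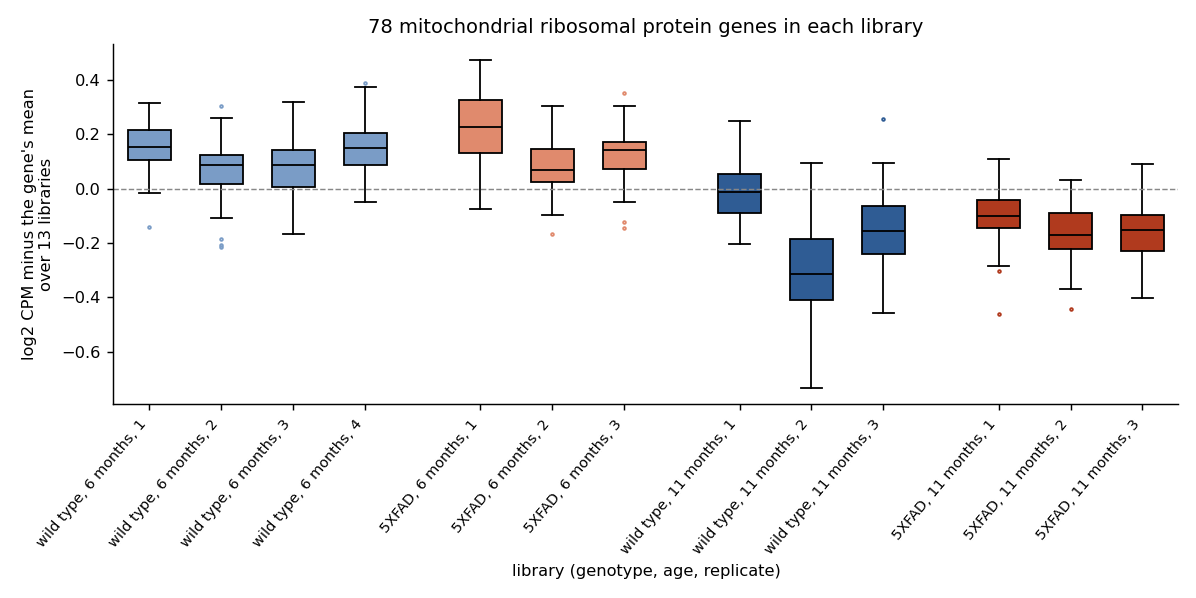
Log2 CPM of the 78 genes minus each gene's mean over 13 libraries, 1 box for each library, labelled by genotype, age and replicate. Boxes span the quartiles with the median as a line, whiskers reach the last gene within 1.5 times the box, and dots are genes beyond. Medians lie between 0.07 and 0.23 in the 7 libraries of 6 months and between -0.31 and -0.01 in the 6 libraries of 11 months.

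Genotype at 6 months was compared first. No member passed the threshold, an adjusted p under 0.05 in edgeR's quasi-likelihood test with Benjamini-Hochberg adjustment over all genes, where 1.32% of all genes tested passed. By DESeq2 the count of members was also 0, and 2 members had an unadjusted p under 0.05 in edgeR, where 9.09% of all genes did. Fold changes lay above 0 for 56 members (all genes 48.3%) and below 0 for 22, with a median of 0.05 on the log2 scale against -0.01 for all genes tested. This balance rested on replicate 1 of 5XFAD, without which 38 members were above 0 and 40 below, with a median of -0.00399. With offsets for transcript length and GC content in each library, 32 were above 0 and 46 below. Other fits went further above 0, with 63 members above without replicate 2 of 5XFAD (median 0.09) and 59 with sex as a covariate (median 0.08). All 3 of the 5XFAD libraries at 6 months were male, against 2 female and 2 male in wild type. Levels did not overlap between the groups for 1 member that was higher in 5XFAD, Mrpl48 (all genes 6.97%), and for 2 that were lower, Mrps12 and Mrpl37 (all genes 5.07%).

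Mrps12, which sits at the decoding centre of the small subunit, gave 33.3, 37.7, 33.3 and 41.2 CPM in wild type and 32.0, 28.1 and 32.2 CPM in 5XFAD at 6 months. All 3 of the 5XFAD libraries were below all 4 of wild type, with a log2 fold change of -0.24 ± 0.09 (SE) and an adjusted p of 0.426 (edgeR). Mrpl37, a large-subunit protein specific to mitochondria and the least variable member, gave 43.0, 43.0, 42.4 and 42.4 CPM in wild type and 38.8, 39.8 and 38.6 CPM in 5XFAD. Its groups were also apart, by -0.13 ± 0.06 (SE) on the log2 scale, with an adjusted p of 0.549 (edgeR).

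Of the members above 0 at 6 months, Mrpl13 had the smallest p, with a log2 fold change of 0.18 ± 0.09 (SE) and an adjusted p of 0.608 (edgeR). Mrpl2, Mrpl23, Mrps22 and Mrps25 followed at 0.15, 0.15, 0.17 and 0.09 on the log2 scale. Mrpl2 and Mrpl23 are large-subunit proteins of bacterial descent, and Mrps22 and Mrps25 are small-subunit proteins specific to mitochondria. The other members below 0 with the smallest p were Mrps18a, Mrpl16 and Mrps30, at -0.14, -0.11 and -0.08. Adjusted p for these 7 ran from 0.705 to 0.875 (edgeR), so none of these differences was beyond the spread between libraries.

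Genotype at 11 months gave the same count. No member passed (edgeR, 4.31% of all genes tested passed; DESeq2 also gave 0), and 1 member had an unadjusted p under 0.05 (all genes 15.8%). Fold changes were above 0 for 47 members (all genes 45.0%) and below 0 for 31, with a median of 0.03 on the log2 scale against -0.03 for all genes tested. Without replicate 2 of wild type 25 were above 0 and 53 below (median -0.06), and without replicate 1 of wild type 58 were above and 20 below (median 0.11). Without replicate 1 of 5XFAD 41 were above 0 (median 0.00186), with sex as a covariate 39 were, and with the length and GC offsets 22 were. The direction of the members between genotypes at 11 months therefore changed with the library left out. No member was higher in 5XFAD without overlap (all genes 10.4%), and 6 were lower without overlap (all genes 8.76%): Mrpl17, Mrpl43, Mrpl53, Mrps12, Mrps17 and Mrps24.

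Mrpl43, a large-subunit protein specific to mitochondria, had the smallest p of the members at 11 months. It gave 35.7, 28.9 and 31.1 CPM in wild type and 26.8, 26.6 and 27.2 CPM in 5XFAD, with a log2 fold change of -0.25 ± 0.08 (SE) and an adjusted p of 0.143 (edgeR). The 5XFAD libraries were close together and all below wild type. With the length and GC offsets, Mrpl43 was the 1 member past the threshold, at -0.31 ± 0.08 (SE) and an adjusted p of 0.0362 (edgeR). Of 21 other ways of processing, this was the only one that called a member between genotypes at 11 months. Mrpl43 overlaps Twnk, the mitochondrial DNA helicase gene, on the opposite strand.

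Mrps12 was again lower in every 5XFAD library at 11 months, with 30.7, 33.7 and 29.4 CPM in wild type and 27.9, 28.1 and 25.7 CPM in 5XFAD. Its log2 fold change was -0.20 ± 0.10 (SE) with an adjusted p of 0.37 (edgeR), so it missed the threshold at both ages. Mrpl3, Mrps24 and Mrpl17 were the others below 0 with the smallest p, at -0.18, -0.20 and -0.13. Above 0 these were Mrps11, Mrps21, Mrpl45, Mrpl41 and Mrpl27, at 0.19, 0.18, 0.13, 0.16 and 0.11 on the log2 scale, with adjusted p from 0.46 to 0.581 (edgeR).

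The scale matters for such small differences between genotypes. With log2(TPM + 1) in place of counts, all genes tested had a median of -0.11 at 6 months and -0.13 at 11 months, and the members had -0.10 and -0.08. On that scale 7 and 12 of the 78 members were above 0. Relative to all genes the members stood 0.01 and 0.04 higher on that scale and 0.06 and 0.05 higher on the CPM scale. With the length and GC offsets the difference from all genes was -0.01 and -0.03, so its sign depended on the processing.

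Age was compared within each genotype, in libraries that the 2 age comparisons do not share. In wild type 12 members fell from 6 to 11 months and none rose (edgeR, adjusted p under 0.05; of all genes tested 1.29% fell and 2.42% rose). All 78 members had a fold change below 0, where 47.9% of all genes tested did, and 52 had an unadjusted p under 0.05, where 23.8% of all did. The median was -0.25 on the log2 scale, a level 15.8% lower, against 0.02 for all genes tested. Levels at 11 months lay below all those at 6 months for 36 members, where this held for 7.96% of all genes. In bulk tissue, fewer cells of a type and less RNA per cell cannot be told apart.

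In 5XFAD 19 members fell and none rose (of all genes tested 2.39% fell and 4.84% rose). All 78 were again below 0 (all genes 50.1%), 54 had an unadjusted p under 0.05 (all genes 24.4%), and 64 did not overlap between the ages (all genes 17.3%). The median was -0.27, a level 17.3% lower, against 0.00 for all genes tested. Calls were made in both genotypes for 8 members, Mrpl11, Mrpl2, Mrpl20, Mrpl27, Mrpl33, Mrpl55, Mrps18c and Mrps33. They are 66.7% of the members' calls in wild type and 42.1% of those in 5XFAD. How many of all genes tested were called in both was not counted, so whether 8 is unusual cannot be told. Lower without overlap in both genotypes were 31 members, where this held for 4.92% of all genes tested. Across the 78 members the changes in the 2 genotypes had a Pearson r of 0.65, and across all genes tested 0.46, as a description over genes measured in the same libraries.

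**Figure D3:**
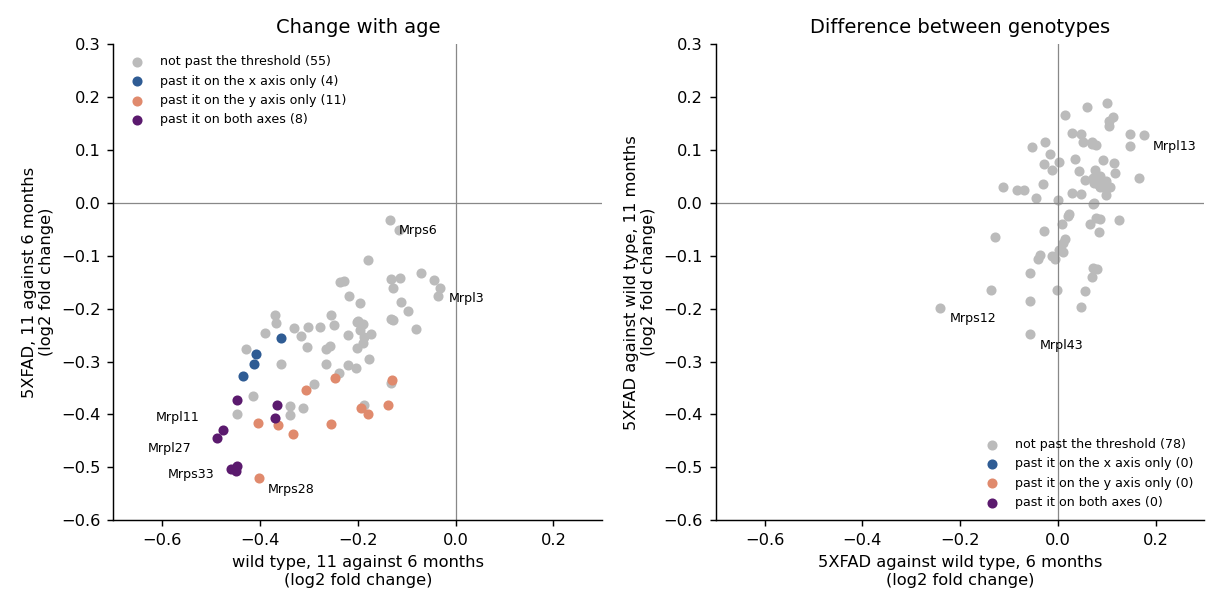
Log2 fold changes of the 78 genes, on the left with age (wild type on the x axis, 5XFAD on the y axis), on the right between genotypes (6 months on the x axis, 11 months on the y axis). Colours give which comparison passed an adjusted p of 0.05, with the number of genes. All 78 points on the left lie below 0 on both axes and 8 passed on both, while points on the right lie on both sides of 0 and none passed.

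Large-subunit proteins of bacterial descent, the largest role with 30 of the 78 members, were 6 of the 12 calls in wild type. In 5XFAD they were 11 of the 19. Whether calls differ between roles was not tested. Mrpl11, at the base of the stalk where elongation factors bind, had the smallest p in both. It gave 49.5, 48.3, 49.6 and 54.2 CPM in wild type at 6 months and 38.2, 33.2 and 37.2 CPM at 11 months. In 5XFAD it gave 54.7, 49.2 and 51.0 CPM at 6 months and 38.8, 39.3 and 37.0 CPM at 11 months. The lowest 6-month library was well above the highest 11-month library in both genotypes. Its log2 fold changes were -0.48 ± 0.08 (SE, adjusted p 0.0165, edgeR) in wild type and -0.43 ± 0.08 (SE, adjusted p 0.0106, edgeR) in 5XFAD. Of 21 other ways of processing, it was called in 16 and 18.

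Mrpl27, whose bacterial counterpart reaches toward the peptidyl transferase centre, had the largest fall in wild type. It gave 52.7, 52.1, 55.3 and 55.7 CPM in wild type at 6 months and 41.2, 34.2 and 40.0 CPM at 11 months. In 5XFAD it gave 60.5, 53.0 and 56.3 CPM at 6 months and 44.0, 40.2 and 40.6 CPM at 11 months. The ages were apart in both genotypes, by -0.49 ± 0.08 (SE, adjusted p 0.0173, edgeR) and -0.44 ± 0.09 (SE, adjusted p 0.012, edgeR). It was called in 17 and 16 of the 21 other ways, and it overlaps the endonuclease gene Eme1 on the opposite strand.

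Mrpl20, which takes part in assembling the bacterial large subunit, gave 60.9, 59.6, 65.0 and 65.6 CPM in wild type at 6 months and 56.3, 39.0 and 42.8 CPM at 11 months. In 5XFAD it gave 68.4, 59.8 and 61.4 CPM and then 47.0, 44.4 and 43.0 CPM. Replicate 1 of wild type at 11 months was close to the younger libraries, and in 5XFAD the ages were far apart. Log2 fold changes were -0.45 ± 0.11 (SE, adjusted p 0.0422, edgeR) and -0.50 ± 0.12 (SE, adjusted p 0.0242, edgeR). The call was made in only 4 of the 21 other ways in wild type and in 12 in 5XFAD.

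Mrpl33, Mrpl55 and Mrpl2 were the other large-subunit proteins of bacterial descent that fell in both genotypes. In wild type their log2 fold changes were -0.45, -0.37 and -0.36, and in 5XFAD they were -0.37, -0.41 and -0.38, with adjusted p of 0.034 to 0.0479 and 0.0245 to 0.0476 (edgeR). Mrpl2 is a core protein near the peptidyl transferase centre, and it was called in 3 of the 21 other ways in wild type.

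Mrpl17, another large-subunit protein of bacterial descent, was called in 5XFAD. It gave 36.7, 35.5 and 35.9 CPM at 6 months and 29.5, 27.9 and 28.3 CPM at 11 months in 5XFAD, against 34.5, 32.3, 35.8 and 33.8 CPM and then 32.1, 30.3 and 31.1 CPM in wild type. The ages were apart in both genotypes, in wild type by a narrow margin. Its log2 fold change in 5XFAD was -0.34 ± 0.07 (SE, adjusted p 0.0156, edgeR). Mrpl12, the stalk protein that binds elongation factors, fell by 0.33 on the log2 scale in 5XFAD (adjusted p 0.0182, edgeR) and had -0.25 in wild type (adjusted p 0.0551, edgeR). Mrpl13, Mrpl15 and Mrpl18 were also called in 5XFAD, at -0.35, -0.40 and -0.42 on the log2 scale.

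Large-subunit proteins specific to mitochondria, 21 of the 78 members, were 2 of the calls in wild type. These were Mrpl54 at -0.41 and Mrps30 at -0.43 on the log2 scale (adjusted p 0.0367 and 0.0404, edgeR). In 5XFAD they were 4 of the calls, Mrpl43 at -0.39, Mrpl46 at -0.44, Mrpl53 at -0.42 and Mrpl57 at -0.42. Mrpl43 gave 35.4, 33.6 and 36.4 CPM in 5XFAD at 6 months against the 11-month values near 27 given above, and its adjusted p was 0.0193 (edgeR). Its wild-type levels at 6 months were 36.4, 35.0, 36.0 and 38.6 CPM, so the 11-month wild-type library at 35.7 CPM overlapped them.

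Small-subunit proteins, 16 members with a bacterial counterpart and 10 specific to mitochondria, made up 4 calls in each genotype. Mrps33, a protein specific to mitochondria, gave 74.9, 71.7, 75.1 and 72.1 CPM in wild type at 6 months and 59.1, 45.7 and 56.5 CPM at 11 months. In 5XFAD it gave 86.0, 76.1 and 73.8 CPM and then 58.8, 55.6 and 51.7 CPM. No 11-month library reached the level of any 6-month library. Log2 fold changes were -0.45 ± 0.09 (SE, adjusted p 0.0278, edgeR) and -0.51 ± 0.10 (SE, adjusted p 0.0121, edgeR), called in 13 and 19 of the 21 other ways.

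Mrps18c gave 20.1, 20.5, 22.0 and 24.1 CPM in wild type at 6 months and 17.7, 13.8 and 15.8 CPM at 11 months, and 23.6, 20.6 and 22.0 CPM and then 15.7, 13.8 and 17.2 CPM in 5XFAD. It fell by 0.46 on the log2 scale in wild type (adjusted p 0.0422, edgeR) and by 0.50 in 5XFAD (adjusted p 0.0246, edgeR). Mrps18a, Mrps18b and Mrps18c are paralogs of the bacterial protein S18 that occupy separate places in the ribosome. Mrps18b had -0.37 in wild type (adjusted p 0.051, edgeR) and -0.21 in 5XFAD (adjusted p 0.225, edgeR). Mrps18a, the paralog in the large subunit, had -0.11 and -0.14 and overlapped between the ages in both genotypes. Whether the paralogs differ from one another was not tested.

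Mrps28 had the largest fall of the members in 5XFAD, from 15.1, 15.8 and 15.4 CPM to 11.6, 10.8 and 9.72 CPM, by 0.52 on the log2 scale (adjusted p 0.0197, edgeR). Mrps28 was lower at 11 months without overlap in both genotypes. Its log2 fold change with age in wild type was -0.40, which narrowly missed the threshold (adjusted p 0.0531, edgeR). Mrps24, a protein of the mRNA entry side, was called in 5XFAD at -0.38, and Mrps9 and Mrps21 in wild type at -0.36 and -0.41 (adjusted p 0.0404 and 0.0497, edgeR). Mrps36, the member outside the ribosome, had -0.34 and -0.40 and passed in neither (adjusted p 0.164 and 0.117, edgeR).

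**Figure D4:**
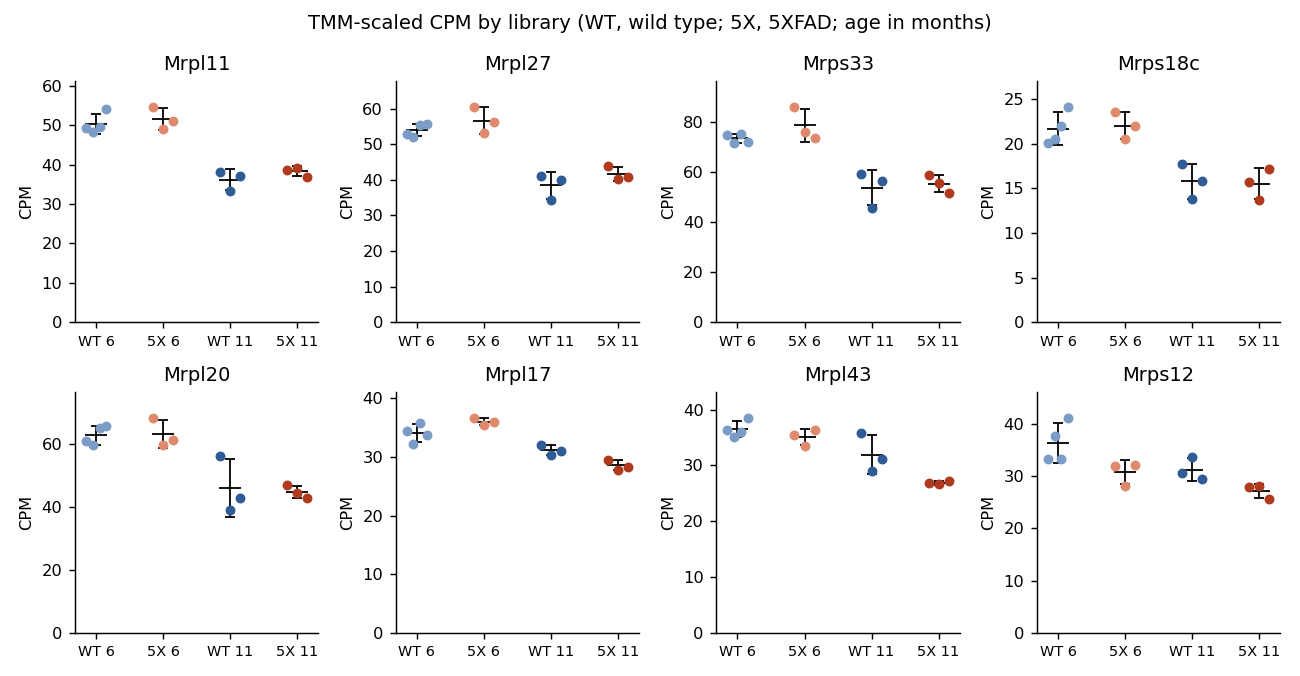
TMM-scaled CPM of 8 mitochondrial ribosomal protein genes in each of the 13 libraries (points), with group mean and SD (bars), by genotype (WT, wild type; 5X, 5XFAD) and age in months, on axes that start at 0. All 8 have lower group means at 11 months than at 6 months in both genotypes. Mrpl17, Mrpl43, Mrps12, Mrps18c and Mrpl20 have their lowest group mean in 5XFAD at 11 months. For Mrps18c and Mrpl20 the wild-type mean of that age is close (15.5 against 15.8 CPM and 44.8 against 46.0 CPM).

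Members that moved least were Mrpl3 in wild type, at -0.03 (adjusted p 0.862, edgeR), and Mrps6 in 5XFAD, at -0.03 (adjusted p 0.9, edgeR). By role, large-subunit proteins with a bacterial counterpart had a median of -0.25 in wild type and those without one -0.26, and small-subunit proteins with and without one had -0.23 and -0.19. In 5XFAD the same 4 medians were -0.32, -0.30, -0.23 and -0.25. In 69 members with a promoter in the table, those with the GABP letters had medians of -0.27 in wild type and -0.29 in 5XFAD (26 members), and those without had -0.25 and -0.26 (43 members), with no test of the difference.

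The interaction asked whether the change with age differed between the genotypes. No member passed (edgeR; 0.00572% of all genes tested passed), DESeq2 also gave 0, and none had an unadjusted p under 0.05 (all genes 3.96%). Fold changes of the interaction were below 0 for 50 members (all genes 52.1%) and above 0 for 28, with a median of -0.04 on the log2 scale against -0.01 for all genes tested. Without replicate 1 of wild type at 11 months 29 were below 0 and 49 above (median 0.05), and without replicate 1 of 5XFAD at 6 months 33 were below and 45 above (median 0.01). Without replicate 2 of wild type at 11 months 63 were below 0 (median -0.09), so the balance of directions rested on single libraries. The smallest p was that of Mrpl17, at -0.21 ± 0.10 (SE, p 0.05, adjusted p 0.999, edgeR), followed by Mrpl43 at -0.19 ± 0.12 (SE) and Mrps24 at -0.24 ± 0.15 (SE). The members called in a single genotype are therefore not shown to differ between the genotypes.

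The number of calls rested on single libraries, while the median did not. In wild type the 12 calls became 36 without replicate 1 of wild type at 11 months and 0 without replicate 2 of that group. They became 2, 2, 4 and 0 without replicates 1, 2, 3 and 4 of wild type at 6 months. They became 4 and 5 without replicates 1 and 3 of 5XFAD at 11 months and 4 and 5 without replicates 2 and 3 of 5XFAD at 6 months, which share the estimate of the spread. The median of the members stayed between -0.31 and -0.19 in all 13 such fits, with 75 to 78 members below 0. In 5XFAD the 19 calls became 5, 8 and 0 without replicates 1, 2 and 3 of 5XFAD at 11 months and 0, 3 and 6 without replicates 1, 2 and 3 of 5XFAD at 6 months, with a median between -0.31 and -0.23.

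Several other measures moved with age in the same libraries. The slope of log2 level against transcript length, per doubling of length, ran from -0.048 to 0.015 at 6 months and from 0.018 to 0.132 at 11 months in the wild-type libraries. In the 5XFAD libraries it ran from -0.089 to -0.052 and from 0.00 to 0.048. The ages were nearly touching in wild type and apart in 5XFAD, and short transcripts read lower at 11 months. With offsets for length and GC content the members' medians were -0.14 in wild type and -0.16 in 5XFAD, with 2 and 5 calls, and 66 and 77 of the 78 members lay below 0. Mrpl11 and Mrps30 were the 2 calls in wild type, and Mrpl11, Mrpl43, Mrpl12, Mrps33 and Mrps34 the 5 in 5XFAD. The share of counts from mitochondrial DNA ran from 8.38% to 8.88% at 6 months and from 7.89% to 11.4% at 11 months in wild type, and from 9.94% to 9.99% and then from 10.1% to 11.3% in 5XFAD. The change with age had a Pearson r with log2 length of 0.39 in wild type and 0.26 in 5XFAD over the 78 members, as a description. With sex as a covariate the medians were -0.24 and -0.32 and the calls 4 and 15.

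Markers of several cell types moved with age too. Summed levels of 5 of 5 endothelial markers were 76.7 to 98.5 CPM in wild type and 70.0 to 82.0 CPM in 5XFAD at 6 months, and 130 to 212 CPM and 108 to 144 CPM at 11 months. Those of 6 of 6 astrocyte markers were 1889 to 2031 CPM and 2403 to 2646 CPM at 6 months, and 2251 to 3608 CPM and 3874 to 4602 CPM at 11 months. Both sets were higher at 11 months without overlap in each genotype. Those of 6 of 6 neuronal markers were 5430 to 7303 CPM and 6583 to 7416 CPM at 6 months, and 4882 to 6579 CPM and 5728 to 6184 CPM at 11 months, overlapping in wild type. Those of 6 of 6 striatal markers were 1165 to 2862 CPM and 540 to 1682 CPM at 6 months and 267 to 2270 CPM and 279 to 711 CPM at 11 months. Those of 6 of 6 microglial markers were 247 to 254 CPM in wild type and 459 to 486 CPM in 5XFAD at 6 months, and 253 to 441 CPM and 809 to 1112 CPM at 11 months. Those of 4 of 4 mural markers were 136 to 154 CPM and 135 to 142 CPM at 6 months, and 157 to 249 CPM and 180 to 216 CPM at 11 months. Those of 3 of 3 markers of oligodendrocyte precursors were 55.4 to 65.0 CPM and 61.7 to 69.6 CPM at 6 months, and 72.5 to 98.6 CPM and 81.2 to 92.9 CPM at 11 months. Both were also higher at 11 months without overlap in each genotype, while oligodendrocyte and red blood cell markers overlapped between the ages. The part of these shifts in the change of the members was not tested.

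**Figure D5:**
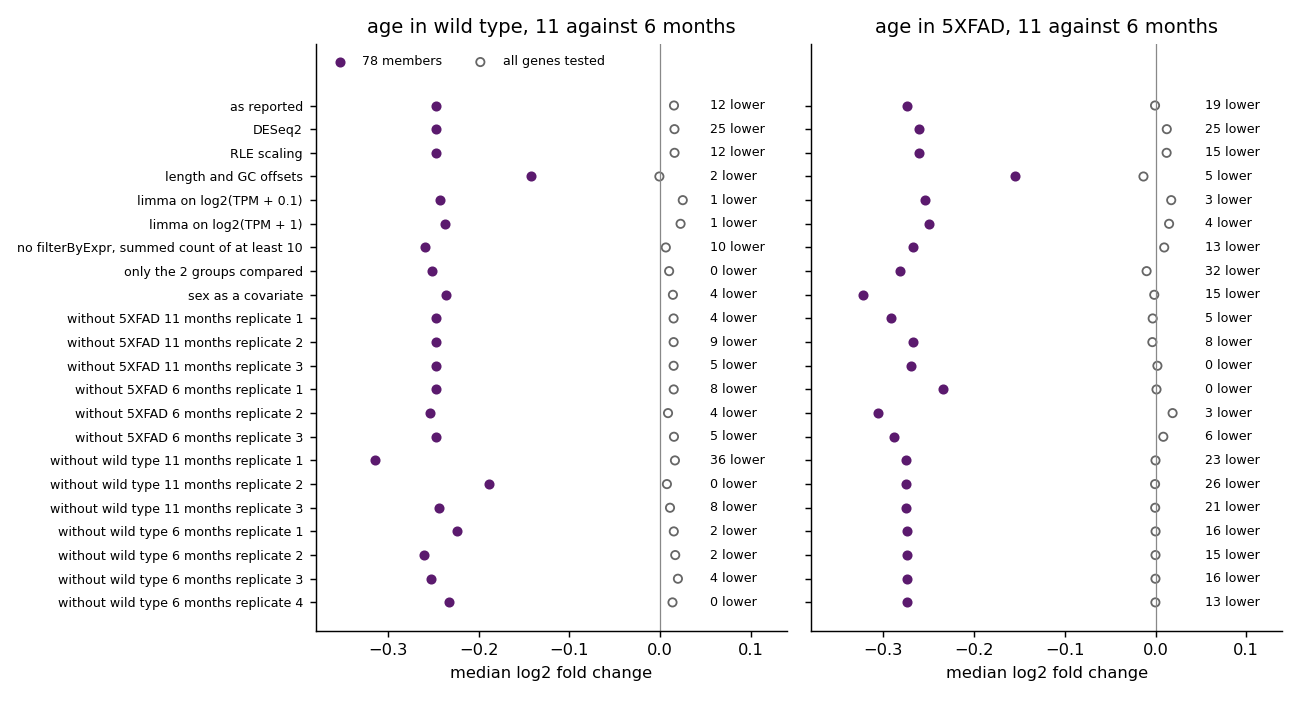
Median log2 fold change with age of the 78 genes (filled) and of all genes tested (open), under the processing reported and 21 others, in wild type (left) and 5XFAD (right), with the number of members called lower printed beside each. Member medians lie below 0 in every row, nearest to 0 with the length and GC offsets, while the number of calls ranges from 0 to 36.

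Other genes of mitochondrial translation were read from lists by role. Of all genes tested, 47.9% in wild type and 50.1% in 5XFAD were below 0 with age, and 1.29% and 2.39% fell. Of 5 ribosome proteins without an Mrp symbol, all 5 were below 0 with age in both genotypes, with medians of -0.29 and -0.24. Chchd1, a small-subunit protein, was the 1 of these called, in 5XFAD (-0.40 ± 0.11 SE, adjusted p 0.0394, edgeR). Between genotypes the smallest p were those of Dap3 at 6 months, at 0.09 (adjusted p 0.856, edgeR), and Ptcd3 at 11 months, at -0.16 (adjusted p 0.424, edgeR), both small-subunit proteins. Of 26 genes for ribosome assembly and rRNA modification, 19 in wild type and 22 in 5XFAD were below 0 with age, with medians of -0.07 and -0.15. Mrm3, an rRNA methyltransferase, was the 1 called, in 5XFAD at -0.42 (adjusted p 0.0432, edgeR). In the genotype comparisons none of the 26 passed. Dhx30, an RNA helicase of assembly, had the smallest p at 6 months, at -0.32 (adjusted p 0.118, edgeR), and Fastkd2, an RNA-binding assembly factor, at 11 months, at -0.45 (adjusted p 0.0709, edgeR).

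Of 17 translation factors, 13 were below 0 with age in each genotype (all genes 47.9% and 50.1%), with medians of -0.10 and -0.09. Slirp, which stabilises mitochondrial mRNAs, was the 1 called, in 5XFAD at -0.43 (adjusted p 0.0452, edgeR), where 2.39% of all genes tested fell. In the genotype comparisons the smallest p were those of 2810006K23Rik, a peptide release factor, at 6 months, at -0.30 (adjusted p 0.485, edgeR), and of Oxa1l, the inner-membrane insertase, at 11 months, at 0.15 (adjusted p 0.315, edgeR). Of 20 genes for mitochondrial aminoacyl-tRNA synthesis, 15 were below 0 with age in each genotype, with medians of -0.09 and -0.13. Lars2, the leucyl-tRNA synthetase, was the 1 called, in 5XFAD at -0.71 (adjusted p 0.0213, edgeR), against the same 2.39% of all genes. Lars2 also had the smallest p between genotypes at 6 months, at 0.33 (adjusted p 0.525, edgeR). At 11 months this was Hars2, the histidyl-tRNA synthetase, at -0.34 (adjusted p 0.118, edgeR).

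Of 12 genes for mitochondrial transcription and its nuclear regulators, none passed in any comparison. With age 8 in wild type and 6 in 5XFAD were above 0 (all genes 9102 and 8731 of 17483). Nrf1 had the smallest p between genotypes at 6 months, at -0.23 (adjusted p 0.513, edgeR), and the coactivator Ppargc1b at 11 months, at -0.71 (adjusted p 0.184, edgeR). The 13 mRNAs of mitochondrial DNA, which the members translate, leaned the other way from the members with age in wild type. All 13 were above 0 (all genes 9102 of 17483), with a median of 0.20. Of these, 1 was higher without overlap (all genes 1593 of 17483). Of the 13, 4 had an unadjusted p under 0.05 in edgeR (all genes 23.8%). Replicate 1 of wild type at 11 months had 7.89% of counts from mitochondrial DNA, below every 6-month wild-type library (8.38% to 8.88%). In 5XFAD 9 of the 13 mRNAs were above 0 with age (all genes 8731 of 17483) and 4 below, with a median of 0.08. The 1 with an unadjusted p under 0.05 in edgeR (all genes 24.4%) was mt-Atp6, which was below 0, at -0.36. Without overlap 3 were higher (all genes 3222 of 17483) and 1 was lower (all genes 17.3%). Between genotypes their medians were 0.33 at 6 months and 0.14 at 11 months, and none of the 13 passed in any comparison. The smallest p were those of mt-Nd4l at 6 months, at 0.72 (adjusted p 0.0794, edgeR), and of mt-Nd6 at 11 months, at 0.28 (adjusted p 0.197, edgeR), and of the 2 mitochondrial rRNAs that of mt-Rnr2 at both, at 0.32 and 0.35 (adjusted p 0.356 and 0.149, edgeR).

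For comparison, 2 other gene families were read. Of 82 measured nuclear genes of the respiratory chain, 22 fell in wild type and 34 in 5XFAD (all genes 1.29% and 2.39%), with medians of -0.31 and -0.32. The cytosolic ribosomal protein genes, which serve translation outside mitochondria, were also mostly below 0 with age, 81 and 76 of 83 measured, with medians of -0.16 and -0.14 and with 0 and 2 that fell. Between genotypes they stood above 0 in 82 of 83 at each age (all genes 48.3% and 45.0%), with medians of 0.25 and 0.27. Of them 10 rose at 6 months and 27 at 11 months, where 1.32% and 4.31% of all genes tested passed in either direction. The members had medians of 0.05 and 0.03 there and no call. The slope against transcript length was also apart between genotypes at 6 months, at -0.048 to 0.015 in wild type and -0.089 to -0.052 in 5XFAD. At 11 months the slopes overlapped, at 0.018 to 0.132 in wild type and 0.00 to 0.048 in 5XFAD. These 2 other families were not read with the length and GC offsets. The difference between the families was not tested.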

How the data were processed

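RNA of 13 frontal cortex libraries was aligned by the authors with STAR 2.7.1 to GRCm38 and quantified with RSEM, as the submitters' processing notes state. Neither the version of RSEM, nor the gene models or strandedness, is given in the sources used here. Per gene, the deposited files give expected counts and TPM, per the file headers. RSEM shares reads that fit several genes, and 7.24% to 7.71% of expected counts per library were not whole. Symbols and positions came from GENCODE M21 (GRCm38), matching all 55536 identifiers, and promoters from RefSeq.

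Expected counts were rounded and tested with edgeR 4.0.16 (R 4.3.3): TMM scaling, filterByExpr (minimum count 10, minimum total 15), 4 group means over 13 libraries, robust quasi-likelihood test, Benjamini-Hochberg adjustment over 17483 genes. Each SE was derived from the F statistic as the size of the log2 change over its square root. The test was also tried on simulated data, for the genotype comparison at the younger age. Of 100 genes changed by 1 on the log2 scale it recovered 64%, and of 100 changed by 0.5 it recovered 33%. Smaller changes, such as those of the members between genotypes, were not tried. The lack of calls between genotypes therefore does not exclude them.

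Alternatives were DESeq2 1.42.0, RLE scaling, no count filter, limma 3.58.1 on log2(TPM + 1) and log2(TPM + 0.1) for genes with a mean of at least 0.5 TPM, length and GC offsets, sex as a covariate, the 2 groups alone, and each library left out. The rule for naming took the 10 calls with the smallest p in each age comparison, the 5 members with the smallest p in each direction (3 for the interaction), the 5 highest and 5 lowest in TPM and the Mrps18 paralogs; of each other list, the gene with the smallest p between genotypes. The remaining calls, members whose groups did not overlap between genotypes, and extremes of change or variation were named after their values were seen. Members and lists were chosen with earlier results of these data known.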

Additional observations from a re-analysis of the deposited data

Results flagged for a closer look

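In wild type at 6 months, the group of 4 libraries, 3 members had a library far from the others. Mrpl13 stood at 36.98 CPM in replicate 1 against 31.57 to 31.65 CPM in the others, and Mrpl55 at 31.57 CPM in replicate 1 against 28.32 to 28.39 CPM. Mrps24 stood at 17.43 CPM in replicate 2 against 22.8 to 23.4 CPM. Replicate 1 is also the library with the high choroid plexus markers. The gap exceeded Dixon's 95% critical value for 4 samples in these 3 of 37 series of values tested (36 members, with at most 10 of the calls of each age comparison among them, and the median over all members), and chance alone gives such a gap in about 1 of 20 groups.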

How the results depend on the processing

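Members below the threshold between genotypes stayed so under all 21 alternatives, except that the length and GC offsets gave 1 lower at 11 months. On log2(TPM + 0.1) and log2(TPM + 1) the genotype medians were -0.104 and -0.103 at 6 months and -0.0872 and -0.0845 at 11 months. On either TPM scale 7 of the 78 members were above 0 at 6 months and 12 at 11 months, against 56 and 47 as reported. Reversals of single genes were read only for the members with the smallest p in each direction. Among them Mrps25 reversed at 6 months (-0.0539 and -0.0531). At 11 months Mrpl45 (-0.00911 and -0.00868) and Mrpl27 (-0.00627 and -0.0063) did. Calls with age in wild type, 12 as reported, were 25 by DESeq2, 2 with the offsets (median -0.14), 1 and 1 on the TPM scales, 0 with the 2 groups alone and 4 with sex, and 0 to 36 with a library left out. In 5XFAD, 19 as reported, they were 5 with the offsets (median -0.16), 3 and 4 on the TPM scales with pseudocounts of 0.1 and 1, and 32 with the 2 groups alone, and 0 to 26 with a library left out. The cause of these moves was not tested. Member medians with age were below 0 under every alternative. Each of the 12 and 19 calls with age was recomputed under every alternative: of 252 values in wild type 103 were still called, and of 399 in 5XFAD 225 were. No paired analysis was possible because replicate numbers follow the order of deposit and pair no libraries. Every member had at least 4055 counts over the 13 libraries, and precision is limited by 3 or 4 libraries in a group.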
